A study of Drosophila melanogaster with 6 samples.

Results

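The genes described here are the protein-coding genes of the fourth chromosome of Drosophila melanogaster, the small dot chromosome. A gene was a member if a curated RefSeq mRNA of it was listed in the tables and RefSeq places it on that chromosome. The genes mGluR, unc-13, Cadps, CaMKI, RpS3A and ATPsynbeta were left out by the rule. There were 73 members, of 13881 protein-coding genes in all, and they were set beside 2166 X-linked and 11609 other autosomal genes. The transcript of highest base mean stood for a gene, and the base mean is the mean over libraries of reads divided by a size factor (normalized reads).

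The fourth chromosome is known as an unusual autosome, because most of it is packaged as heterochromatin although many of its genes are expressed. In flies the protein Pof coats its genes and raises their output, the methyltransferase egg (Eggless, the fly SETDB1) places the histone H3 lysine 9 methylation found there, and HP1a binds that mark. dSET2 is Set2, the enzyme that places trimethylation of histone H3 lysine 36 on transcribed genes. The chromosome carries several genes of nervous system development, among them a semaphorin receptor, a pair of ephrin signalling genes, 3 ligands of the TGF-beta superfamily and the Pax6 genes toy and ey.

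The study measured RNA in the third-instar larval central nervous system at 84 h after egg laying (AEL), in 3 samples labelled knockdown and 3 labelled control. Knockdown larvae had the genotype dSET2 RNAi/+; elavC155GAL4, in which the X-linked elav driver expresses the RNAi transgene in neurons. Whether other cells expressed the transgene was not examined here. Control larvae had the genotype dSET2 RNAi/+; Canton S, so that both groups carried the RNAi transgene. Each sample pooled 15 central nervous systems, and larvae were reared at 25 °C.

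The authors' comparison rested on 4 libraries that carry no labels, called A, B, C and D here, where the labels describe 6 samples. A library may be 1 sample or several summed, and which samples entered is not given in the sources used here. Their effective library sizes were 14197600 reads in A, 8405440 in C and 6974240 in D, against 10613400 in B. Libraries A, C and D were on the positive side of the fold change and library B alone was on the negative side, and the tables do not say which side is the knockdown. For the 14 members with a base mean of at least 100, a fold change was computed from the reads as A, C and D over B. It lay within 0.03 log2 units of the edgeR value of the authors' deposited table. The recovery of these reads searched B only near the value given by that edgeR fold change, so the closeness was partly built in. The sides also showed in transcripts with 1 read in all, whose library follows from the base mean alone. All 499 such transcripts in A, 427 in C and 194 in D were positive by edgeR in the authors' deposited table. All 489 in B were negative. With 1 library on the side of B there was no replicate check on that side. The values per library below are therefore a description, and no test between groups was made from them. Set2 itself had 6.75 normalized reads in A, 23.3 in C and 0 in D (10, 21 and 0 reads), and 32.4 in B (36 reads). The floor used here for a count of 0 was 3 reads, worth 4.28 normalized reads in D. Set2 was thus highest in B and lowest in D, and its log2 fold change of -1.65 had an unadjusted p of 0.039 and an adjusted p of 1 by edgeR in the authors' deposited table.

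No fourth-chromosome gene was called in either direction. By edgeR in the authors' deposited table, 0 of the 73 genes had an adjusted p under 0.05, where 0.868% of all transcripts were called, and 2 had an unadjusted p under 0.05, where 2.84% of all transcripts did. By DESeq2 the authors' deposited table called 0 as well, where 2.26% of transcripts with an adjusted p were called. Among the 267 listed transcripts of these genes, the lowest adjusted p was 0.33 by edgeR and 0.64 by DESeq2 in the authors' deposited tables. Of the 73 genes, 38 had a base mean of at least 10, 26 lay between 0 and 10, and 9 were listed at 0. Among genes past that base mean, 3.7% were called by edgeR over the whole genome, and 9.38% had an unadjusted p under 0.05, against 1 of the 38 members. The precision of single genes was limited: the standard errors of the 38 log2 fold changes ran from 0.44 to 0.66 by DESeq2 in the authors' deposited table.

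The highest transcript of most expressed members was, however, somewhat higher on the side of libraries A, C and D. By edgeR in the authors' deposited table, 31 of the 38 members had a positive log2 fold change and 7 a negative one. The background of positive values was 51.3% of genes past the same base mean. The median log2 fold change of the 38 members was 0.35, with quartiles of 0.03 and 0.79, by edgeR in the authors' deposited table. Over X-linked genes the median was 0.10 (1035 genes, 57.3% positive), and over other autosomal genes it was 0.00 (5211 genes, 49.8% positive), from the authors' deposited table as well. Weighted to the base means of the members, the median was 0.16 for X-linked and 0.01 for other autosomal genes. Fourth-chromosome genes are long and have many listed transcripts, so the weighting was repeated with gene length and then with transcript number beside base mean. Other autosomal genes then had a median of 0.11 or 0.12, and X-linked genes 0.19 by either weighting. The difference from the members thus narrowed to 0.23 against other autosomal and 0.16 against X-linked genes with transcript number. Most single values were small beside their errors. Of the 38 log2 fold changes, 8 exceeded 1 standard error, all positive, and 1 exceeded 2 standard errors, by DESeq2 in the authors' deposited table. Members exceeding 1 standard error made up 21.1%, and 24.7% of all genes past the same base mean did so.

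The reads per library placed this shift mainly in library D. Of the 38 members, 24 were highest in D (63.2%), 1 in A, 12 in C and 1 in B. Among X-linked genes 41.4% were highest in D, and among other autosomal genes 33.3% were. The median deviation of a library from the gene's own mean over libraries, on a log2 scale, was -0.27 in A, -0.11 in C and 0.48 in D, against -0.28 in B for the members. For other autosomal genes these medians were -0.09 in A, -0.05 in C and -0.08 in D, against -0.01 in B. X-linked genes lay between, with a median deviation of 0.11 in D. Library B was the lowest of the libraries for 15 members, or 39.5%, where 29.1% of all genes with base means of 10 to 1000 (lgs added) had B lowest. Among X-linked genes 35.0% had B lowest. Matched on base mean and transcript number, 35.5% of X-linked and 31.2% of other autosomal genes did, so the share of members was near that of like genes. Library A was the lowest for 12 members (31.6%), against 16.9% of X-linked and 15.3% of other autosomal genes, not matched on gene length. Among genes of 10000 bases and over, the median deviation in A was -0.35 for members, -0.30 for X-linked and -0.31 for other autosomal genes. Low values in A were thus shared by long genes of other chromosomes. Library B was the highest for 1 member, mav, where 26% of all such genes had B highest.

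Leaving out libraries in turn showed how far the shift rested on D. Computed from the reads with 0.5 added, the median log2 fold change of A, C and D over B was 0.36 for the 38 members. Without D it was 0.22, with 28 of 38 positive, against 0.11 for X-linked and 0.04 for other autosomal genes. Without A it was 0.52 and without C it was 0.47. Single libraries differed more: the median was 0.06 for A over B with 20 of 38 positive, 0.40 for C over B with 29 positive, and 0.72 for D over B with 30 positive. These medians were 0.06, 0.11 and 0.21 for X-linked genes and -0.03, 0.05 and -0.07 for other autosomal genes. Among genes of 10000 bases and over, C over B was 0.51 for members, 0.42 for X-linked and 0.34 for other autosomal genes. D over B was 0.82 for such members, 0.43 for X-linked and 0.28 for other autosomal genes. Library A thus showed hardly any shift from B, and D showed most.

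**Figure D1:**
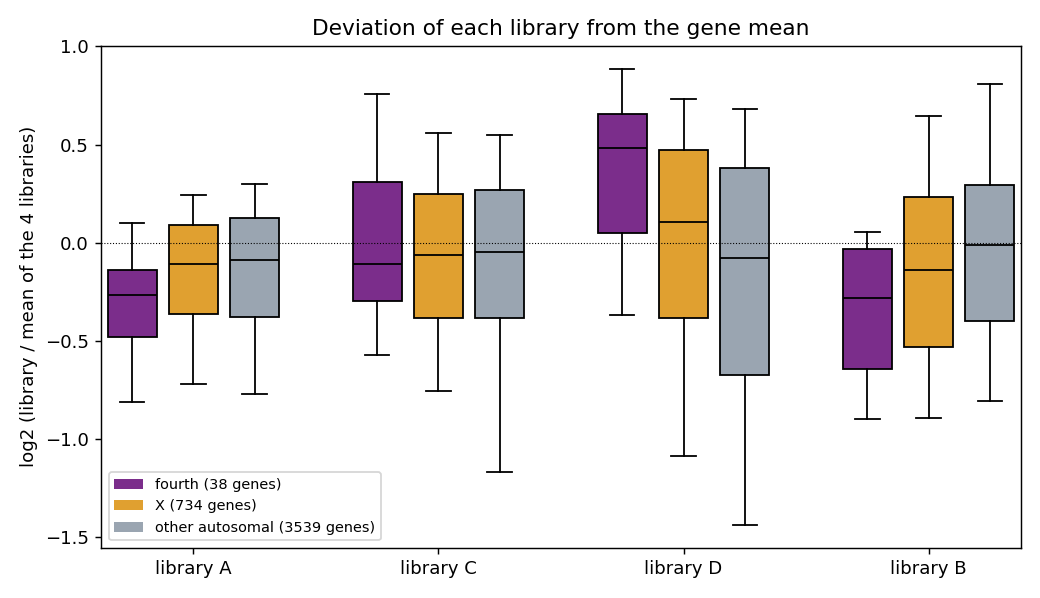
Log2 deviation of each library from the mean of the 4 libraries (vertical axis), for fourth-chromosome genes (38), X-linked genes (734) and other autosomal genes (3539). Boxes span the quartiles, black lines are medians and whiskers run from the 10th to the 90th percentile of genes. The median of fourth-chromosome genes is 0.48 in library D and -0.28 in library B.

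The levels of marker genes of other tissues and of neurons differed between the libraries too. All 10 of 10 neuronal markers had positive values, with a median log2 fold change of 0.66, by edgeR in the authors' deposited table. The 7 of them with base means up to 1000 summed to 1133 normalized reads in A, 1535 in C and 1922 in D, and to 970.2 in B. That sum follows Syt1 and ChAT, which were highest in D, whereas the other 5 were highest in C, VGlut was lowest in D, and B was the lowest for 4 of the 7. Salivary gland markers summed to 29.7 in A, 48.8 in C and 31.4 in D, and to 1109 in B. Of the salivary gland markers, Sgs4 and Sgs5, which encode glue proteins, were at 0 in A, C and D. Of the 6 salivary gland markers 5 were highest in B. Sgs1 went the other way, with 10.8 in A, 18.8 in C and 5.70 in D, and 7.21 in B. Its log2 fold change was 0.72 by edgeR in the authors' deposited table. Past the base mean of 10, 1 salivary gland marker was positive and 4 were negative. Muscle markers with base means up to 1000 summed to 51.3 in A, 28.8 in C and 72.7 in D, and to 118.9 in B. Of the 5 muscle markers so summed, 3 were highest in B and 2 in D. Of the muscle markers 5 of 5 past the base mean of 10 were negative, with a median of -2.21, by edgeR in the authors' deposited table. Glial markers so summed gave 32.4 in A, 35.5 in C and 41.3 in D, and 27.9 in B. That sum held Gs2, moody and nrv2 only, as repo, alrm and wrapper had base means of 5413 to 8319. Of the 3 summed, 2 were highest in D and 1 in C, and C, D and B were each lowest for 1. Fat body markers so summed gave 1.35 in A, 2.22 in C and 0 in D, and 2.70 in B. Below the base mean of 10, moody was at -0.45 and nrv2 at 0.36 by edgeR in the authors' deposited table. The 4 glial markers past the base mean of 10 were positive with a median of 0.27, and 1 fat body marker was at -6.51, by edgeR in the authors' deposited table. That fat body marker, Lsp1alpha, had a base mean of 5464 and was not in the sums. Its log2 fold change was -1.99 ± 0.60 (standard error) by DESeq2 in the authors' deposited table. The fat body markers in the sums had at most 2 reads in any library, and of these Lsp2 was positive and Lsp1beta and Fbp2 were negative. The part of tissue makeup, and of library D with its lowest depth, in the shift of fourth-chromosome genes was not tested. In such bulk samples, fewer cells of a type and less RNA per cell cannot be told apart.

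Among the 22 genes of transcription and chromatin, 12 passed the base mean of 10, 9 were positive and 3 negative, and their median log2 fold change was 0.27 by edgeR in the authors' deposited table. The highest of all members was lgs (legless, the fly BCL9), a co-activator of Wingless signalling. It had 2609 normalized reads in A, 4312 in C and 2208 in D, and 3248 in B. Library B thus lay within the range of the others, and the log2 fold change of lgs was -0.08 ± 0.45 (standard error) by DESeq2 in the authors' deposited table. Its partner in that pathway, the TCF factor pan (pangolin), had 393.7 normalized reads in A, 414.6 in C and 735.6 in D, and 383.8 in B. For this highest transcript of pan, D stood above the other libraries, which lay close together. Over all transcripts, pan summed to 429.5 in A, 606.4 in C and 778.4 in D, and 479.2 in B, so that C also stood above A and B. A pan transcript with a base mean of 63.1 had a log2 fold change of -0.20 by edgeR in the authors' deposited table. Taf3, a subunit of the general transcription factor TFIID, had 654.4 in A, 1134 in C and 918.1 in D, and 762.1 in B, with B again inside the range. The forkhead gene fd102C behaved alike, at 249.2 in A, 383.5 in C and 283.7 in D, and 316.2 in B.

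Of the Pax6 genes, regulators of eye and brain development, toy (twin of eyeless) had 262.0 normalized reads in A, 322.6 in C and 518.9 in D, and 292.8 in B, and ey (eyeless) was listed at 0, which does not show a lower level. The homeobox gene onecut had 13.5 in A, 48.8 in C and 15.7 in D, and 26.1 in B, a spread among A, C and D that was wider than their distance to B. Of the 12 transcription genes past the base mean, 7 were highest in C and 5 in D. B was the lowest for 3 of them.

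Hcf (host cell factor, a subunit of chromatin-modifying complexes) had the largest positive value of the members past the base mean. It had 14 reads in A, 9 in C and 20 in D, and 1 read in B. Normalized, these were 9.45 in A (exact 95% Poisson interval 5.17 to 15.9), 9.98 in C (4.56 to 18.9) and 28.5 in D (17.4 to 44.0), and 0.90 in B (0.023 to 5.02). The interval of B did not overlap those of A and D and overlapped that of C. Its log2 fold change was 3.92 with an unadjusted p of 0.0044 and an adjusted p of 0.33 by edgeR in the authors' deposited table. By DESeq2 in the authors' deposited table, it was 1.41 ± 0.66 (standard error), with an adjusted p of 0.64. Intervals of this kind cover counting error only.

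Guidance and signalling genes were mostly positive. Of 16 such genes 10 passed the base mean, 9 were positive and 1 negative, with a median log2 fold change of 0.61 by edgeR in the authors' deposited table. PlexA (Plexin A), a receptor of semaphorins in axon guidance, had 597.0 normalized reads in A, 639.6 in C and 1108 in D, and 438.7 in B. Its log2 fold change was 0.81 with an adjusted p of 1 by edgeR in the authors' deposited table. The other plexin gene, PlexB, was listed at 0. Ephrin, a membrane-bound ligand, had 291.7 in A, 311.5 in C and 507.5 in D, and 234.2 in B. Its receptor Eph had 56.7 in A, 47.7 in C and 108.3 in D, and 45.0 in B. The ligand and its receptor thus had the same order at the ends, with D highest and B lowest, and their log2 fold changes were 0.64 and 0.63 by edgeR in the authors' deposited table.

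The 3 TGF-beta ligands did not share a direction. Actbeta (Activin-beta) had 511.2 normalized reads in A, 923.4 in C and 634.4 in D, and 545.9 in B. Myoglianin (myo) had 18.2 in A, 16.6 in C and 29.9 in D, and 19.8 in B. For both, B lay inside the range of the other libraries. In mav (maverick), the member with the most negative value past the base mean, library B was the highest, with 354.5 in A, 299.3 in C and 266.6 in D, and 409.9 in B. The log2 fold change of mav was -0.42 with an unadjusted p of 0.45 by edgeR in the authors' deposited table. The cell-surface immunoglobulin gene dpr7 had 18.2 in A, 29.9 in C and 62.7 in D, and 14.4 in B, which gave a log2 fold change of 1.31 by edgeR in the authors' deposited table. CaMKII, a calcium-dependent kinase with 12 listed transcripts, had 25.7 in A, 55.4 in C and 47.0 in D, and 38.7 in B.

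Channel, transport and synapse genes had 7 of 11 past the base mean, 6 positive and 1 negative, with a median log2 fold change of 0.79 by edgeR in the authors' deposited table. CG11155, which encodes a kainate-type glutamate receptor subunit, had 298.5 normalized reads in A, 334.8 in C and 470.4 in D, and 210.8 in B. The ankyrin gene Ank, whose product links membrane proteins to the cytoskeleton, had 228.9 in A, 303.7 in C and 289.4 in D, and 302.7 in B. CG11155 was therefore lowest in B, and Ank was not. The kinesin gene Kif3C had 40.5 in A, 51.0 in C and 55.6 in D, and 37.8 in B, and the small GTPase gene Arf4 had 37.1 in A, 23.3 in C and 47.0 in D, and 27.9 in B. Of the 7 genes 6 were highest in D, and of the 10 guidance and signalling genes past the base mean 7 were.

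The remaining role groups had few expressed members. Of 5 RNA and translation genes 2 passed the base mean, with a median of 0.39 by edgeR in the authors' deposited table. CG11360 had 210.7 normalized reads in A, 138.6 in C and 436.2 in D, and 149.5 in B. The initiation factor gene eIF4G1 had 16.2 in A, 88.7 in C and 12.8 in D, and 39.6 in B, the lowest D library relative to its mean among the members past the base mean. The 3 libraries on one side thus spread over both sides of B, and the log2 fold change of eIF4G1 was 0.00 with edgeR and -0.01 with DESeq2 in the authors' deposited tables. The silencing factor gene gw (gawky, a partner of Argonaute) and Gyf stood under the filter, with base means of 7.67 and 2.18 per the authors' deposited table.

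Of 8 repair, metabolism and mitochondrial genes 2 passed, Rad23 and Rnf11. Rad23, a nucleotide excision repair gene, had 58.1 normalized reads in A, 45.4 in C and 72.7 in D, and 26.1 in B, and its log2 fold change was 1.15 with an adjusted p of 1 by edgeR in the authors' deposited table. The DNA glycosylase gene Tdg, which removes mismatched thymine, had 6 reads in A, 3 in C and 7 in D, and 0 in B, where 3 reads would be worth 2.70 normalized reads. Its unadjusted p was 0.017 and its adjusted p 0.93 by edgeR in the authors' deposited table. The pigmentation-family gene yellow-h and the lipid carrier gene apolpp had base means of 9.20 and 7.20 per the authors' deposited table. The muscle titin-family gene bt was at a base mean of 1.53 per the authors' deposited table. Of the 10 members in no role list 5 passed, with a median of 0.02 by edgeR in the authors' deposited table. Of those 5, 2 were negative: CG33941 at -0.08 and CG32017 at -0.23 by edgeR in the authors' deposited table.

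**Figure D2:**
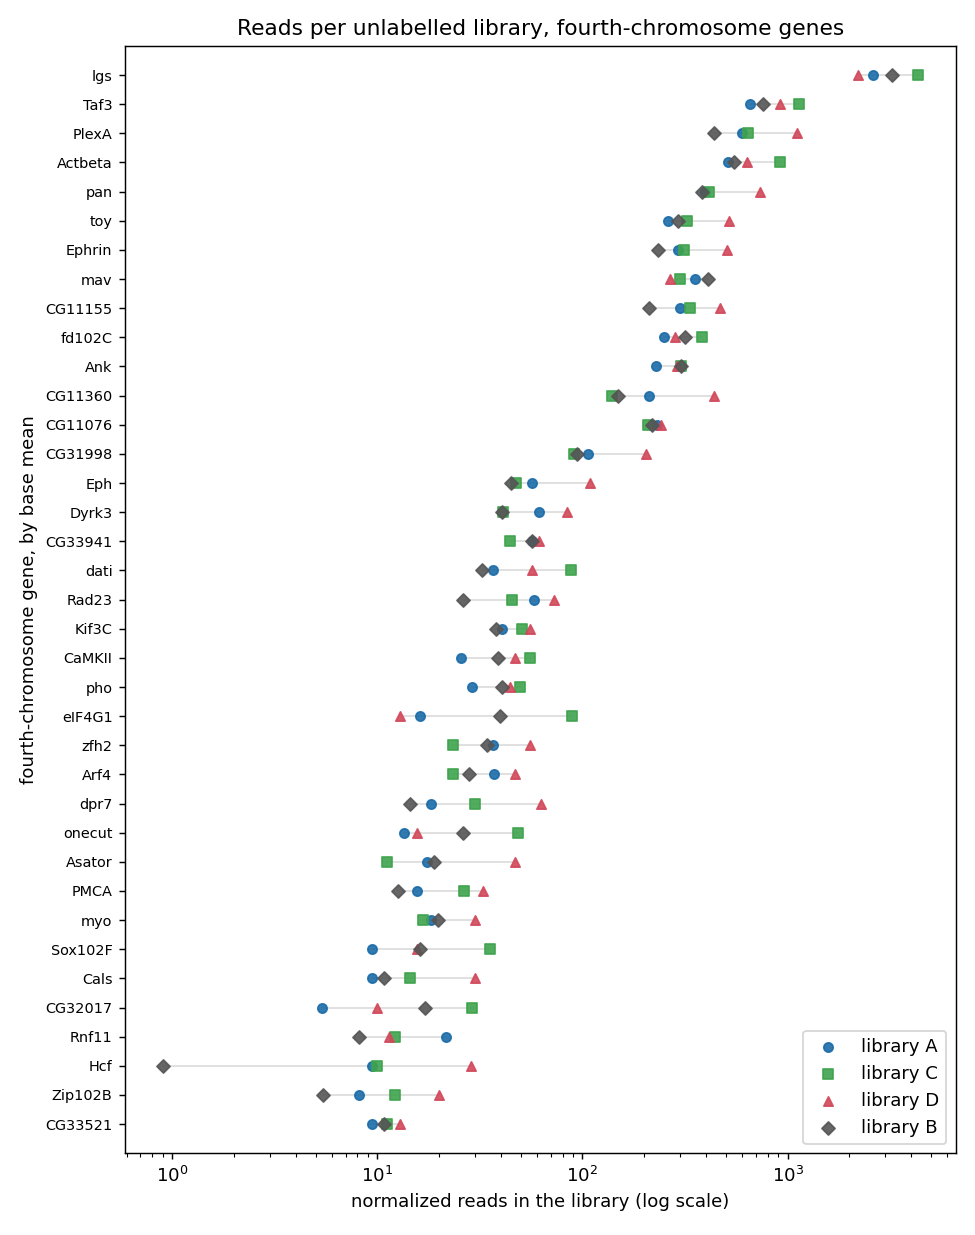
Normalized reads (log scale, horizontal axis) in libraries A, C, D and B for 37 of the 38 fourth-chromosome genes past a base mean of 10, with 1 gene per row in order of base mean. Red triangles (library D) are rightmost for most genes, and grey diamonds (library B) are rightmost for mav alone.

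Of the 5 members with a log2 fold change above 1, 3 lay next to or near each other in gene order. A run of 6 adjacent genes, Rad23, Zip102B, Rnf11, PMCA, Hcf and dati, had log2 fold changes from 0.89 to 3.92 by edgeR in the authors' deposited table. This run was extended by 1 gene beyond the planned neighbours of Hcf after its values were seen, and carries no test. It holds for the transcripts that stand for the genes. A second Rnf11 transcript of nearly the same base mean, 13.3, was at -0.41 and a dati transcript with a base mean of 4.94 at -1.05 by edgeR in the authors' deposited table. Over all transcripts, Rnf11 summed to 32.4 normalized reads in A, 25.5 in C and 24.2 in D, and 24.3 in B, a log2 fold change of 0.17, and the other 5 genes of the run had values from 0.66 to 2.87. The zinc transporter gene Zip102B had 8.10 normalized reads in A, 12.2 in C and 19.96 in D, and 5.41 in B. Rnf11, a RING-finger gene, had 21.6 in A, 12.2 in C and 11.4 in D, and 8.11 in B, and was the member that was highest in A. The plasma membrane calcium pump gene PMCA had 15.5 in A, 26.6 in C and 32.8 in D, and 12.6 in B. All 3 transcripts were thus low in count, with B a little under the lowest of the other libraries. The zinc-finger gene dati had 36.5 in A, 87.6 in C and 57.0 in D, and 32.4 in B. The next genes along, lgs and Taf3, ended the run, with log2 fold changes of -0.09 and 0.24 by edgeR in the authors' deposited table. Each unadjusted p in the run other than that of Hcf was 0.14 or more by edgeR in the authors' deposited table.

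Around mav, the signs of the neighbours were mixed. Eph had a log2 fold change of 0.63 and onecut of -0.01 by edgeR in the authors' deposited table. The genes Gat and Ekar on its other side were listed at 0. The outer neighbours CG1909 and gw, both below the base mean of 10, had log2 fold changes of 3.21 and -0.39 by edgeR in the authors' deposited table.

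**Figure D3:**
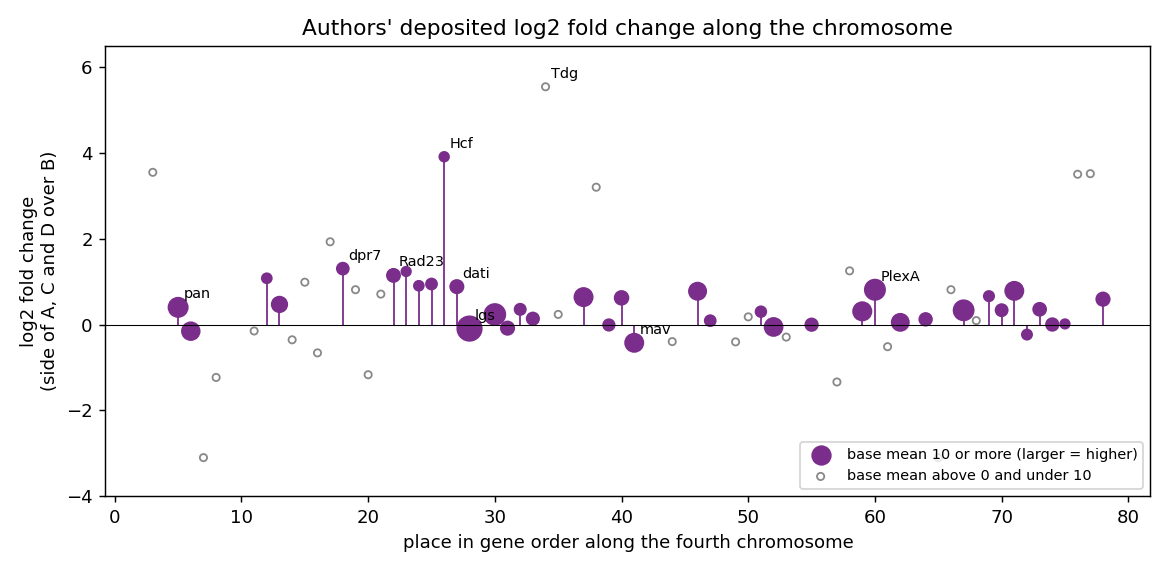
Authors' deposited edgeR log2 fold change (vertical axis, side of A, C and D over B) of the 64 fourth-chromosome genes with a base mean above 0, by place in gene order along the chromosome. Filled circles are genes whose base mean was at least 10 and open circles genes under it, most of whose wide values rest on few reads. The 6 adjacent genes from Rad23 to dati lie between 0.89 and 3.92, and mav is lowest of the filled circles at -0.42.

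The 26 members between 0 and 10 held 14 positive and 12 negative values and had no common direction. Their reads summed to between 1 and 42 over the libraries, with at most 16 in any library, and 11 of the 26 had 3 reads or fewer in each. The hedgehog pathway factor ci (cubitus interruptus) had 2 reads in A, 2 in C and 0 in D, and 0 in B. RhoGAP102A, which encodes a GTPase-activating protein, had 2 reads in A, 0 in C and 11 in D, and 3 in B. Values on so few reads were not interpreted.

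Some members were listed low although their genes are known to be broadly used, and their levels were set beside the number and overlap of their transcripts, with no test. The 267 listed transcripts of the 73 members included 165 at 0 and 43 with a base mean of at least 10. A member had a median of 3 listed transcripts, and 15.1% had a single one, against 43.1% of X-linked and 50.8% of other autosomal genes. The median gene length was 10426 bases for members, 2549.5 for X-linked and 2091 for other autosomal genes in the RefSeq annotation. The base mean reached 100 in 5 of 11 members with 1 listed transcript (45.5%), in 5 of 31 with 2 to 3 (16.1%) and in 4 of 31 with 4 or more (12.9%), from the authors' deposited table. A like fall past 1 transcript was seen in X-linked (43.9%, 12.6% and 18.8%) and other autosomal genes (43.4%, 9.95% and 17.7%). The share of members listed at 0 had no such order: it was 9.09% with 1 transcript, 19.4% with 2 to 3 and 6.45% with 4 or more. In all, 12.3% of members, 18.6% of X-linked and 23.7% of other autosomal genes were listed at 0. In the Ensembl annotation, the median share of exonic bases found in only 1 transcript was 1.95% for the 9 members at 0, 12.0% for the 26 between 0 and 10, and 25.2% for the 38 past 10. Single genes departed from this: JYalpha, listed at 0, had 100% of its bases in 1 transcript, and toy had 0%. ND-49, a subunit gene of mitochondrial complex I, was among those at 0, with JYalpha, PlexB, CG31997, CG33978, ey, Ekar, Gat and Slip1. A value of 0 here says that a gene is listed at 0, not that it is silent. How the counting treated reads shared between transcripts is not given in the sources used here.

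The deviation of library D was also set against the number of listed transcripts. The 7 single-transcript members past the base mean had a median log2 deviation of -0.04 in D and 0.32 in C, and D was above the gene mean in 3 of 7. The 31 members with 2 or more had a median of 0.56 in D, which was above the gene mean in 26 (83.9%). D was above the gene mean in 59.5% of X-linked and 55.0% of other autosomal genes with 2 or more transcripts. Among single-transcript genes the median deviation in D was 0.03 for X-linked and -0.27 for other autosomal genes. Matched on base mean and transcript number, 41.9% of X-linked and 39.1% of other autosomal genes were highest in D, beside 63.2% of the members. The split by transcript number was made after the values were seen and was not tested. When reads were summed over all transcripts of a gene, 24 of 38 members were still highest in D and the median log2 fold change was 0.34, while B was lowest in 12.

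**Figure D4:**
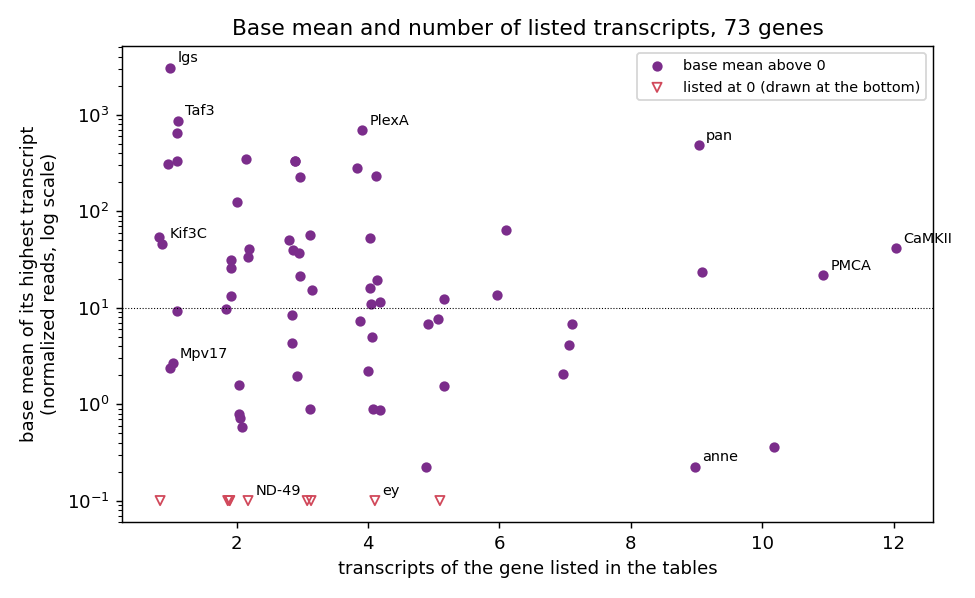
Base mean of the highest transcript of each fourth-chromosome gene (vertical log axis, normalized reads) against the number of its transcripts listed in the tables (horizontal axis, jittered), for 73 genes. Triangles at the bottom are the 9 genes listed at 0, and the dotted line is the base mean of 10. All 5 genes above 300 with a single transcript, lgs, Taf3, Actbeta, mav and fd102C, are at the upper left.

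Genes that act on the chromosome were examined from a list of 16. Of these 12 passed the base mean, 5 were positive and 7 negative, the median log2 fold change was -0.01, and 0 were called, by edgeR in the authors' deposited table. Pof and the methyltransferase gene NSD were listed at 0. The log2 fold changes of egg and of the HP1a gene were 0.05 and -0.01 by edgeR in the authors' deposited table. The HP1a gene had 133.7 normalized reads in A, 117.5 in C and 132.6 in D, and 127.9 in B. The largest positive value was that of G9a, a histone H3 lysine 9 methyltransferase, with 60.1 in A, 54.3 in C and 115.5 in D, and 36.0 in B. G9a thus had the order of many members, with D highest and B lowest, and its log2 fold change was 1.06 with an adjusted p of 1 by edgeR in the authors' deposited table. Su(var)2-HP2, which encodes a partner of HP1a, had 144.5 in A, 654.0 in C and 119.8 in D, and 313.5 in B, a spread among A, C and D that enclosed B. The other 7 were Su(var)3-7 at 0.85, HP1b at 0.16, HP1c at 0.11, Su(var)3-9 at -0.20, wde at -0.21, ADD1 at -0.43 and Kdm4B at -0.58 by edgeR in the authors' deposited table, all with an adjusted p of 1.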

How the data were processed

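RNA-seq of pooled larval central nervous systems was aligned and counted with HISAT2 and featureCounts, with dm3 as the build, and compared with DESeq2 and edgeR, all per the submitters' processing notes; versions are not given in the sources used here. The deposited DESeq2 table gives a base mean, a signal that the authors made by averaging reads divided by size factors, and a Wald score. The deposited tables of both tools give log2 fold changes and p-values by the authors. The deposited edgeR table of the authors also gives an average log2 CPM and an F score. They hold 34115 transcripts, of which 33958 matched a RefSeq gene (Release 6), used for names, chromosome, length and order only.

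The planned edgeR quasi-likelihood test was not run, since the recovered libraries carry no labels and the authors' deposited edgeR test already compares their sides. Whole reads per library were recovered from the base mean alone up to a base mean of 30. Above it, base mean and average log2 CPM were used together. There the reads of B were searched only near the value given by the authors' edgeR log2 fold change, so these reads are not independent of it. The log2 CPM was reproduced within 5.1e-10 with a prior count of 2 and a dispersion of 0.155. Exactly 1 set of reads resulted for 8715 of 8715 genes tried (base mean up to 1000, and all members), and for 1959 of 1959 genes it equalled the set from base mean alone. In simulated data, 100% of 1000 genes returned the true set. Fold changes from reads used a pseudocount of 0.5. Calls used an adjusted p-value under 0.05 over all transcripts.

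Named genes were Set2, members with an unadjusted p-value under 0.05, the 10 of highest base mean, the 5 most positive and 5 most negative, up to 4 per role list, the regulators of the chromosome past the filter, and 3 neighbours on each side of the extreme members. The results on 1 member are not reported here. Others were named after their values were seen. Of the members, 13 were placed in role lists after the data were seen. The members and lists were chosen with earlier results of these data known. The libraries carry no labels, so p-values measure the spread between them, which may be technical. Python 3.11.15, pandas 2.3.3, NumPy 2.4.6 and SciPy 1.17.1 were used.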

Additional observations from a re-analysis of the deposited data

How the results depend on the processing

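The count of 0 members called by edgeR was also 0 with the DESeq2 table, with an adjusted p under 0.01 and with p adjusted only over transcripts past the base mean of 10 (lowest adjusted p 0.092); an unadjusted p under 0.05 gave 2. Of 13 alternatives for the members' median log2 fold change of 0.35, which ran from 0.22 to 0.52, the one that moved it by over 1.5 times was leaving out library D (0.22, against 0.36 from the recovered reads of all libraries). The difference of medians from X-linked genes, 0.25, fell to 0.15 with weights by gene length and to 0.16 with weights by transcript number; from the recovered reads it was 0.18 with all libraries and 0.11 without D. The difference from other autosomal genes, 0.35, fell to 0.23 with weights by transcript number; from the recovered reads it was 0.35 with all libraries and 0.17 without D. None of the alternatives run changed the sign of these medians and differences. Members highest in D numbered 24 of 38, and 12 of 19 at a base mean of at least 50. The alternatives on libraries, on gene length, on transcript number and on members highest in D were chosen after seeing the data. Among named genes, the log2 fold change of eIF4G1 was -0.0100 and that of the HP1a gene 0.00037 with DESeq2, opposite in sign to edgeR and near 0 in both. No paired analysis was possible because the libraries carry no replicate labels, and the replicate block and leaving out a labelled replicate were not run for that reason. A count test with another normalization was not run. Leaving out library B would leave no comparison. With 1 library on the side of B, no spread within that side could be measured.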
